A study of Homo sapiens with 9 samples.

Results

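The genes described here are 10 noncoding genes that carry small nucleolar RNAs (snoRNAs) in their introns: SNHG1, SNHG5, SNHG6, SNHG7, SNHG8, SNHG12, SNHG15, SNHG16, GAS5 and ZFAS1. They were taken by gene symbol from a table of 31558 genes, as noncoding snoRNA hosts whose 5′ ends are linked to growth control. The rule names no measured value, but it was set with earlier results of these data known. All 10 were counted in every sample, the lowest single count being 582, and all 10 were tested in every comparison.

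snoRNAs guide the chemical modification of ribosomal RNA, box C/D snoRNAs its ribose methylation and box H/ACA snoRNAs its pseudouridylation. Most human snoRNAs are cut out of the introns of a host gene, and the spliced exons that remain of a noncoding host are exported like an mRNA. Many hosts begin, like ribosomal protein mRNAs, with a C followed by a run of pyrimidines (a terminal oligopyrimidine, or TOP, start), which links their translation to growth signals through MTORC1, and translation of their short reading frames exposes several of the spliced RNAs, GAS5 among them, to nonsense-mediated decay. The level of such a host in RNA-seq is thus set by transcription and by decay, and several of the 10 have been studied as long noncoding RNAs in colorectal cancer.

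RNA-seq was done on HCT116, a human colorectal carcinoma cell line, transfected with a plasmid carrying the cDNA of the lncRNA CRLM1 (CRLM1-OE), with its antisense control (Anti) or with the empty plasmid (Ctrl), in 3 biological replicates each. All groups shared the cell line, medium and vector backbone, the libraries were made from poly(A) RNA, and the sources used here did not give whether the cells of these samples were a selected pool or a clone. CRLM1-OE was compared with each control to ask what CRLM1 changed, and Anti with Ctrl to measure how far the controls differ. The comparisons share samples, so that their values are given side by side and are not independent of each other.

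Total counts ranged from 33302292 to 44514692 per sample. The counts of CRLM1 itself, entered in the table under its clone name RP4-710M16.2, were 38704, 32751 and 35726 with the CRLM1 plasmid, 1951, 1777 and 1540 with the antisense plasmid and 0 in each Ctrl sample. Keratin 8 stood at 1281 FPKM or more (fragments per kilobase of exon, scaled to library size) and EPCAM at 72.7 to 95.1 FPKM in every sample, whereas the epithelial marker VIL1 was near 0 (at most 0.03 FPKM). The blood cell marker PTPRC (0 to 2 counts), the endothelial markers PECAM1 (0 to 6 counts) and CDH5 (0 to 3 counts) and the fibroblast marker COL1A2 (0 or 1 count) were nearly absent, while CD68 (1.30 to 2.02 FPKM) and COL1A1 (1.15 to 2.48 FPKM) were detected and both were highest in CRLM1-OE.

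The starts of the genes are shown first, since the hosts were chosen for their starts. RefSeq (GRCh38.p14) gave a start for 8 of the 10. Below are the 50 bases before and the 50 bases from the annotated start of the 4 genes that moved most (SNHG7, SNHG5, SNHG12 and GAS5) and of ZFAS1 and SNHG1, which moved little. Capitals mark TATAA and pyrimidine tracts, defined as a C followed by at least 4 pyrimidines on the strand of the gene: the tract that begins at the annotated start or, where there is none, every tract that begins within 10 bases of it. Pyrimidines further upstream that continue a marked tract are not in capitals.
SNHG7, chr9:136728135-136728234, minus strand: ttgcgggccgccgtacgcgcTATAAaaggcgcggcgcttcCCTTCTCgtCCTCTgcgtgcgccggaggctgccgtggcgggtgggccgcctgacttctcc
SNHG5, chr6:85678684-85678783, minus strand: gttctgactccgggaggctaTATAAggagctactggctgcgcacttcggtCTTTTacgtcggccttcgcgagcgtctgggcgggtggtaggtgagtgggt
SNHG12, chr1:28581824-28581923, minus strand: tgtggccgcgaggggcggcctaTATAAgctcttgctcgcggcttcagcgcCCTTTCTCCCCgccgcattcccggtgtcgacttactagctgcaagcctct
ZFAS1, chr20:49278592-49278691, plus strand: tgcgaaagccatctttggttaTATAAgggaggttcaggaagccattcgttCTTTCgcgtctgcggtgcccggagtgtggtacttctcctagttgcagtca
GAS5, chr1:173868996-173869095, minus strand: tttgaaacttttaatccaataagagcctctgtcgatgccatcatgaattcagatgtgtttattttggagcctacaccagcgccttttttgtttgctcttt
SNHG1, chr11:62855836-62855935, minus strand: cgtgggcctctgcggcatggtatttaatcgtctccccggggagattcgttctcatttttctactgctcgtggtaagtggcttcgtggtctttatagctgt

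A pyrimidine tract began exactly at the annotated start in 3 of the 8 genes (SNHG5, SNHG12 and ZFAS1), against 4.07% of 35116 RefSeq promoters. It began within 10 bases of the start in 6 of the 8, which added SNHG7, SNHG8 and SNHG16, against 33.5% of all promoters. Since the genes were chosen for such starts, this describes the choice and is not a result. A feature the choice did not use was TATAA, which began between 40 and 20 bases before the start in 5 of the 8 (SNHG5, SNHG7, SNHG8, SNHG12 and ZFAS1) against 3.91% of all promoters. The search was added after the sequences had been seen, and on the strand of the gene alone. CACGTG, which reads the same on both strands, lay in the window from 250 bases before to 50 after the start of 1 of the 8 genes, SNHG7, against 7.26% of all promoters. The RefSeq start of GAS5 lies upstream of the span that GENCODE v44 gives the gene, so its window is not that of the GENCODE transcripts.

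The 10 genes were among the more abundant RNAs of HCT116. By mean FPKM, each stood above 85.0% to 99.5% of the genes of the FPKM table, and together they took 0.215% ± 0.00396 (SD, n = 3) of all counts in Ctrl, 0.209% ± 0.00140 in Anti and 0.204% ± 0.00246 in CRLM1-OE. SNHG6 was the highest in every group, with 306 ± 12.3 FPKM in Ctrl, and was followed by GAS5, SNHG8, ZFAS1 and SNHG16 in the same order in all 3 groups. SNHG12 was the lowest in every group, with 8.93 ± 0.259 FPKM in Ctrl. The ranges of neighbours in this order did not overlap in any group. The order itself changed in 1 place: SNHG1 stood above SNHG5 in Ctrl and Anti, and below it in CRLM1-OE.

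**Figure D1:**
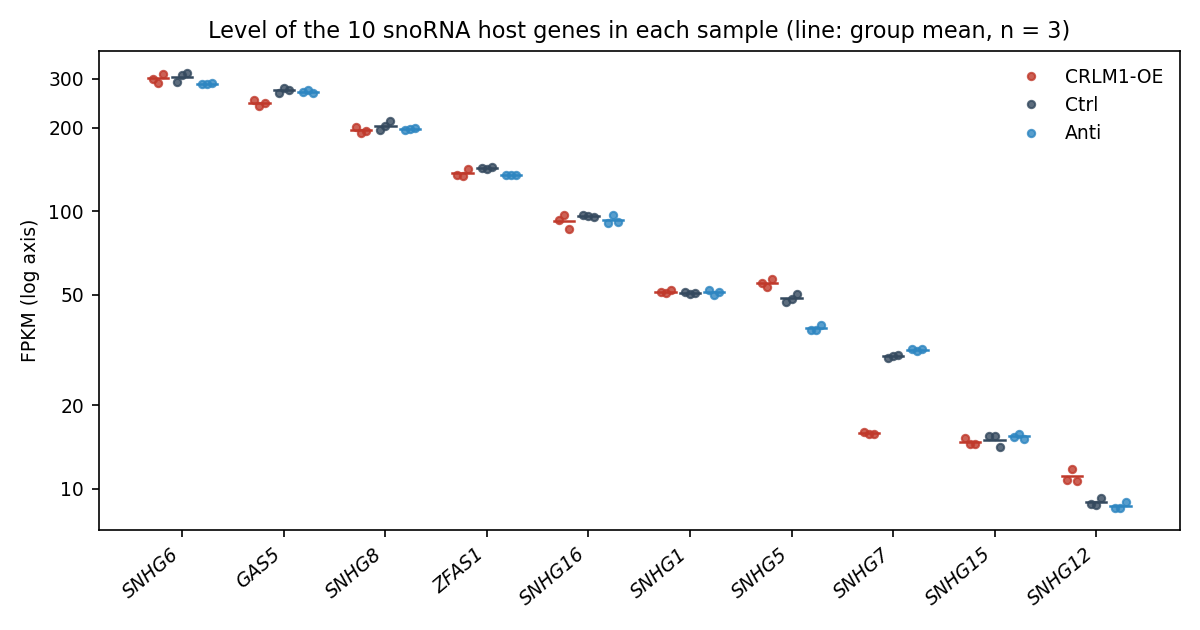
FPKM of the 10 snoRNA host genes (log axis) in each of the 9 samples, ordered by their mean in Ctrl; points are samples and lines are group means (n = 3). SNHG7 fell from about the 30.0 FPKM of Ctrl to 15.8 in CRLM1-OE, SNHG5 was lowest in Anti, and the other genes lay close together across groups.

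SNHG7 was the one host with a large change. The gene (chr9:136721366-136728184, minus strand, GRCh38, GENCODE v44; 6 exons in the canonical transcript) encodes a lncRNA studied in colorectal cancer as a growth-promoting RNA. Its level was 15.96, 15.8 and 15.8 FPKM in the CRLM1-OE samples, 29.6, 30.0 and 30.3 FPKM in Ctrl, and 31.8, 31.4 and 32.0 FPKM in Anti. The 3 CRLM1-OE samples lay close together, far below all 6 control samples. With TMM-scaled counts the log2 fold change was -1.03 ± 0.031 (SE; 95% confidence interval -1.09 to -0.97; adjusted p = 7.72e-246) against Ctrl and -1.05 ± 0.028 (adjusted p = 3.25e-299) against Anti. Anti and Ctrl differed by -0.0083 ± 0.027 (adjusted p = 0.875; interval -0.062 to 0.046) with TMM factors. With total counts SNHG7 was higher in Anti than in Ctrl by 0.097 (adjusted p = 0.0021), both limma fits on FPKM passed as well, and the FPKM ranges of Anti and Ctrl did not overlap. In bulk samples a change in fewer cells and a smaller change in all cells cannot be told apart.

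The fall of SNHG7 did not depend on how libraries were scaled against each other, but its place past the 2-fold mark did. As a share of the summed counts of the 10 hosts, which needs no scaling, SNHG7 made up 3.86% ± 0.0170 (SD, n = 3) in CRLM1-OE, 6.81% ± 0.0215 for Ctrl and 7.48% ± 0.123 for Anti. With total counts in place of TMM factors the log2 fold change was -0.89 ± 0.031 against Ctrl and -0.99 ± 0.027 against Anti, so that the 2-fold call was lost in both comparisons. Over 14 alternative fits it ranged from -1.04 to -0.88 against Ctrl and from -1.06 to -0.96 against Anti, and passed the test in all of them.

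SNHG7 overlaps DIPK1B (listed as FAM69B) on the other strand, and strand use in the counting was not given in the sources used here. FAM69B had 506 to 801 counts per sample, against 2598 to 6398 for SNHG7, and its mean was 6.03 ± 0.136 FPKM in the CRLM1-OE samples, 4.83 ± 0.0819 in Ctrl and 4.92 ± 0.456 in Anti. It rose in CRLM1-OE, by 0.21 ± 0.065 (adjusted p = 0.0063) against Ctrl and 0.25 ± 0.065 (adjusted p = 4.4e-04) against Anti on the log2 scale. The direction was thus opposite to that of SNHG7.

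**Figure D2:**
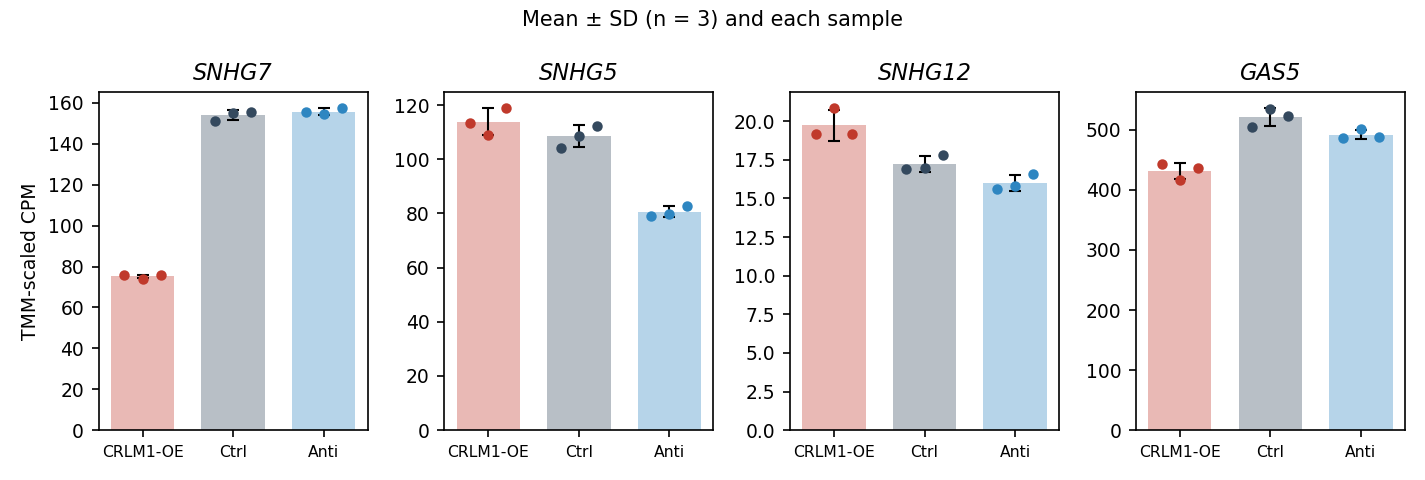
TMM-scaled CPM (counts scaled to library size) of SNHG7, SNHG5, SNHG12 and GAS5; bars are group means, error bars SD (n = 3) and points samples, on axes that start at 0. SNHG7 was low in CRLM1-OE, SNHG5 low in Anti, SNHG12 highest in CRLM1-OE and GAS5 lowest in CRLM1-OE.

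SNHG5, the host of the snoRNAs SNORD50A and SNORD50B, was lower in Anti than in both other groups. The gene (chr6:85650491-85678932, minus strand; 6 exons in the canonical transcript) stood at 55.1, 53.4 and 57.2 FPKM in the CRLM1-OE samples, 47.0, 48.4 and 50.4 FPKM in Ctrl, and 37.3, 37.4 and 38.8 FPKM in Anti. None of the groups overlapped on this scale, and Anti was the lowest. SNHG5 was lower in Anti than in Ctrl by -0.45 ± 0.032 (adjusted p = 5.88e-44) and higher in CRLM1-OE than in Anti by 0.50 ± 0.029 (adjusted p = 6.70e-64) on the log2 scale, and each of these passed in 14 of 14 alternatives. Against Ctrl the difference of CRLM1-OE was 0.071 ± 0.030 (interval 0.012 to 0.13; adjusted p = 0.058) with TMM factors and 0.21 ± 0.030 (adjusted p = 2.5e-11) with total counts, and it passed in 7 of 14 alternatives, ranging from 0.042 without CRLM1-OE replicate 3 to 0.21. The size of any rise over the empty plasmid thus hung on the scaling. In GENCODE v44 a protein-coding readthrough gene on the same strand overlaps SNHG5, and how reads they share were assigned was not given in the sources used here.

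SNHG12 rose in CRLM1-OE. This host of 4 snoRNAs (chr1:28578538-28583132, minus strand; 6 exons in the canonical transcript) had 10.8, 11.8 and 10.7 FPKM in the CRLM1-OE samples, 8.82, 8.75 and 9.23 FPKM in the Ctrl samples and 8.52, 8.56 and 8.99 FPKM in the Anti samples. All CRLM1-OE samples lay above all control samples, and Ctrl and Anti overlapped. The log2 fold change was 0.19 ± 0.063 (adjusted p = 0.0071) against Ctrl and 0.30 ± 0.063 (adjusted p = 6.64e-06) against Anti. With 582 to 840 counts per sample it was the least deeply counted of the 10, and without CRLM1-OE replicate 2, the highest sample, the difference from Ctrl was 0.15 with an adjusted p of 0.10; the other 13 alternatives passed.

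GAS5, whose spliced RNA is a classic target of nonsense-mediated decay and accumulates when translation or growth stops, fell by a small amount. It lies at chr1:173858559-173868882 on the minus strand, with 12 exons in the canonical transcript, and stood at 251, 239 and 245 FPKM in the CRLM1-OE samples, 266, 279 and 274 FPKM in Ctrl, and 268, 274 and 267 FPKM in Anti. The CRLM1-OE samples were all below the control samples, which overlapped each other. The log2 fold change was -0.27 ± 0.022 (adjusted p = 7.49e-34) against Ctrl and -0.18 ± 0.019 (adjusted p = 5.66e-21) against Anti with TMM factors, and both became -0.13 with total counts, still past the test. Anti stood below Ctrl by -0.11 ± 0.021 (adjusted p = 4.79e-06) with TMM factors, and by -0.0025 (adjusted p = 0.970) with total counts.

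The other 6 hosts moved by at most 0.18 on the log2 scale in every comparison. SNHG6, the most abundant host and located on chromosome 8, stood at 299, 290.35 and 313 FPKM in the CRLM1-OE samples, 292, 309 and 316 FPKM in Ctrl, and 287, 287 and 289.65 FPKM in Anti. CRLM1-OE and Ctrl overlapped in their range, and the log2 difference of -0.14 (adjusted p = 3.2e-08) with TMM factors became 0.0050 (adjusted p = 0.900) with total counts. Anti lay below Ctrl without overlap, by -0.18 ± 0.023 (adjusted p = 3.7e-13) with TMM factors, and this passed in 12 of 14 alternatives. SNHG8 (chr4:118278703-118285316, plus strand), host of SNORA24, had 202, 191 and 195 FPKM in the CRLM1-OE samples, 196, 203 and 211 FPKM in Ctrl and 196, 197 and 199 FPKM in Anti, and the 3 groups overlapped in FPKM. On TMM-scaled CPM its CRLM1-OE and Ctrl samples did not overlap (log2 difference -0.16, adjusted p = 2.4e-08). With total counts this difference did not pass (adjusted p = 0.551). ZFAS1 (chr20:49278178-49299600, plus strand), which hosts SNORD12 family snoRNAs, stood at 135, 134 and 142 FPKM in the CRLM1-OE samples, 143, 141 and 144 FPKM in Ctrl and 135, 135 and 135 FPKM in Anti. Ctrl and Anti did not overlap, and ZFAS1 was lower in Anti under every alternative, by -0.18 ± 0.023 (adjusted p = 1.40e-13) with TMM factors and -0.073 ± 0.022 (adjusted p = 0.0055) with total counts. With TMM factors CRLM1-OE also stood below Ctrl, by -0.18 (adjusted p = 1.9e-13), which did not pass with total counts (adjusted p = 0.288). CRLM1-OE and Anti differed by -0.021 with TMM factors (adjusted p = 0.504).

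SNHG16 (chr17:76557727-76670985, plus strand), host of SNORD1 family snoRNAs, had 92.8, 97.0 and 86.3 FPKM in the CRLM1-OE samples, 96.7, 96.4 and 95.5 FPKM in Ctrl and 91.0, 96.8 and 91.3 FPKM in Anti. In FPKM its CRLM1-OE samples spread more widely than those of Ctrl and reached on both sides of them. On TMM-scaled CPM those groups did not overlap (log2 difference -0.18, adjusted p = 3.3e-14), but with total counts the difference did not pass. SNHG1 (chr11:62851978-62855953, minus strand), which hosts a cluster of box C/D snoRNAs, was at 51.1, 50.9 and 51.9 FPKM in the CRLM1-OE samples, 51.3, 50.5 and 50.7 FPKM in Ctrl and 51.9, 49.99 and 51.1 FPKM in Anti, and was the flattest of the 10 in FPKM. With TMM factors SNHG1 passed downward against Ctrl in CRLM1-OE (-0.10, adjusted p = 0.0065) and in Anti (-0.087, adjusted p = 0.028). With total counts neither difference passed (adjusted p = 0.416 and 0.743). SNHG15 (chr7:44983019-44986961, minus strand), host of a box H/ACA snoRNA, stood at 15.2, 14.5 and 14.5 FPKM in the CRLM1-OE samples, 15.5, 15.5 and 14.1 FPKM in Ctrl and 15.4, 15.8 and 15.1 FPKM in Anti, and all its groups overlapped in FPKM. On TMM-scaled CPM its CRLM1-OE samples overlapped neither control. The log2 differences were -0.14 against Ctrl (adjusted p = 5.4e-04) and -0.11 against Anti (adjusted p = 0.0061). With total counts neither passed.

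With TMM factors these small differences nearly all went down against Ctrl. CRLM1-OE against Ctrl, 1 of the 10 hosts passed the test upward (SNHG12; 15.0% of all genes tested, and 29.4% of well-counted genes, those whose mean count reached 500) and 8 passed downward (16.8% of all genes and 44.2% of well-counted genes), while SNHG5 did not pass. Of these, 1 of 10, SNHG7, also passed the 2-fold mark, which 0.915% of all genes and 0.449% of well-counted genes passed downward. CRLM1-OE against Anti, 2 passed upward (SNHG5 and SNHG12; 17.1% of all and 35.9% of well-counted genes) and 4 downward (SNHG7, GAS5, SNHG15 and SNHG16; 18.5% of all and 42.2% of well-counted genes), and SNHG7 alone passed the 2-fold mark (2.56% of all and 1.64% of well-counted genes downward). Anti against Ctrl, 0 passed upward in the edgeR test (11.5% of all and 25.8% of well-counted genes), also 0 at an unadjusted p under 0.05 and 0 with DESeq2, and 7 passed downward (12.2% and 35.8%), none of them past the 2-fold mark (0.380% of all genes downward). On the TMM-scaled CPM the samples of both groups did not overlap for 8 hosts in CRLM1-OE against Ctrl (37.5% of all and 77.1% of well-counted genes), for 5 in CRLM1-OE against Anti (41.0% and 81.1%) and for 8 in Anti against Ctrl (31.0% and 67.9%). Well-counted genes pass this test often at any small difference, and the counts of the hosts are to be read beside those shares.

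The median log2 fold change of the 10 was -0.15 in CRLM1-OE against Ctrl, beside -0.062 for well-counted genes, and -0.045 beside -0.030 in CRLM1-OE against Anti. It was -0.13 beside -0.027 in Anti against Ctrl. With total counts the same medians were -0.013 beside 0.079, 0.014 beside 0.029 and -0.027 beside 0.078. Over all 9 samples the TMM factors were 1.046 to 1.053 in CRLM1-OE, 0.945 to 0.955 in Ctrl and 1.000 to 1.010 in Anti, and they were set anew in each fit of 6 samples. With total counts 2 hosts passed upward (SNHG5 and SNHG12) and 2 downward (SNHG7 and GAS5) in CRLM1-OE against Ctrl. Of 8023 well-counted genes, 3752 passed upward and 2077 downward in that fit. Under either scaling the median of the 10 lay below that of well-counted genes.

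**Figure D3:**
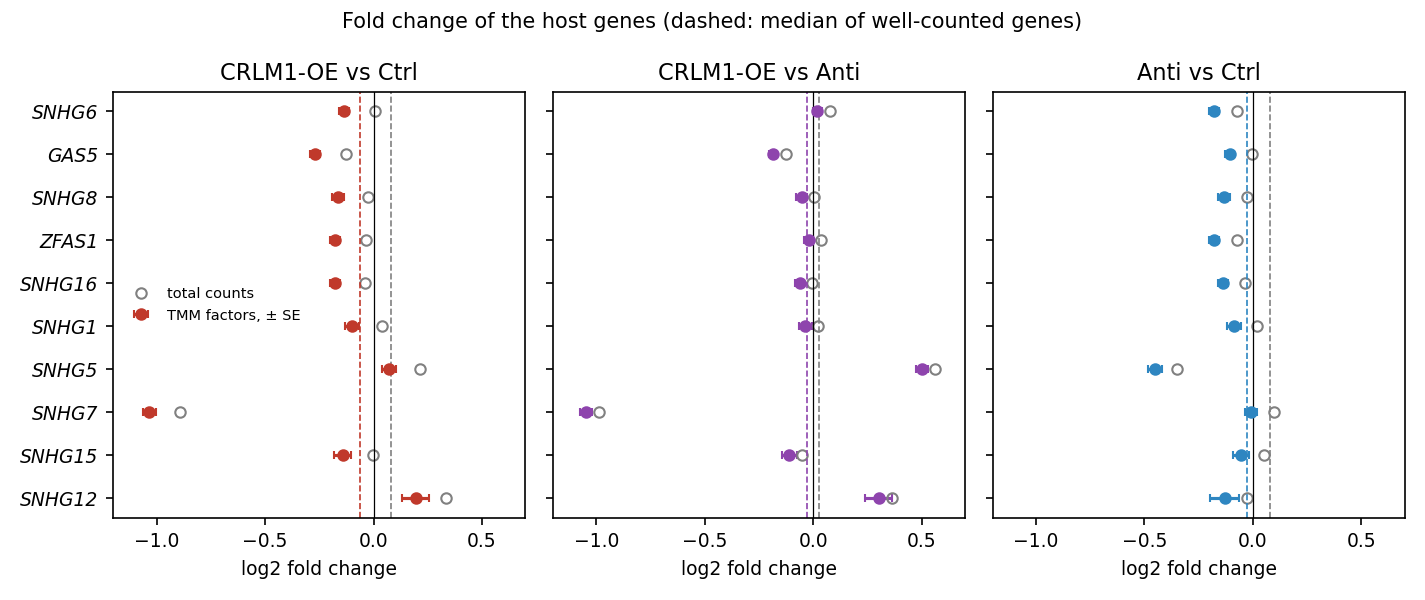
Log2 fold change of each host in the 3 comparisons; filled points with SE bars used TMM factors and open points total counts, and dashed lines are the medians of well-counted genes under each scaling. SNHG7 stood apart in both CRLM1-OE comparisons, SNHG5 in both comparisons with Anti, and the 6 flat hosts shifted with the scaling from below 0 to about 0 in CRLM1-OE against Ctrl.

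Protein-coding hosts with TOP starts, 39 genes mostly of ribosomal proteins and translation factors, nearly all moved down against Ctrl, with a lower median than the noncoding 10. Against Ctrl, 38 of 39 passed downward in CRLM1-OE and 0 upward in the edgeR test (0 at an unadjusted p under 0.05, 0 with DESeq2), with a median of -0.31 (with total counts 35 downward and 2 upward, median -0.16). Among the largest were EIF4G2, a translation initiation factor (-0.61), NAP1L1, a histone chaperone (-0.56), HNRNPA1, a splicing regulator (-0.51), and NCL, which encodes nucleolin (-0.51). Against Anti, 30 passed downward and 5 upward (median -0.11; with total counts 23 and 8, median -0.054), and EIF4G2 (-0.89) and NCL (-0.72) led the list again. Anti against Ctrl, 34 passed downward and 3 upward (median -0.18; with total counts 28 and 5, median -0.076), led by RPL17 (-0.42) and RPS2 (-0.32). With TMM factors the shares of well-counted genes passing downward were 44.2%, 42.2% and 35.8% in these comparisons in turn, and upward 29.4%, 35.9% and 25.8%.

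Other noncoding snoRNA hosts moved in both directions. Of 18 tested in CRLM1-OE against Ctrl, 6 passed upward and 3 downward (median 0.22), and of 19 against Anti 7 and 3 (median 0.29). With total counts it was 7 and 3 (median 0.36), and 9 and 2 (median 0.34). Of all genes tested, 15.0% passed upward and 16.8% downward against Ctrl, and 17.1% and 18.5% against Anti. The medians include hosts with almost no reads, such as SNHG24 (1 count over the CRLM1-OE samples, 0 in Ctrl) and SNHG14 (4 and 2). They thus do not describe the well-counted hosts of this list. EPB41L4A-AS1 fell in CRLM1-OE against both controls, from 18.3, 17.9 and 18.5 FPKM in Ctrl and 20.6, 20.1 and 19.5 FPKM in Anti to 12.2, 13.2 and 12.9 FPKM (-0.63 ± 0.040 and -0.70 ± 0.038). SNHG19 rose by 0.42 ± 0.059 against Ctrl and 0.71 ± 0.061 against Anti. SNHG3, like SNHG5, was lowest in Anti, with 13.5, 12.6 and 13.6 FPKM in the CRLM1-OE samples, 10.9, 11.3 and 10.9 FPKM in Ctrl and 7.78, 7.76 and 7.01 FPKM in Anti, a log2 difference of -0.64 ± 0.052 between Anti and Ctrl. SNHG17 was lower than in Ctrl in both CRLM1-OE (-0.42 ± 0.042) and Anti (-0.37 ± 0.041), and the difference between CRLM1-OE and Anti was -0.073 ± 0.043 (adjusted p = 0.196). Those past the 2-fold mark were SNHG9 and SNHG10 against Ctrl and SNHG9 and SNHG21 against Anti, all of them upward and named here after their values were seen.

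**Figure D4:**
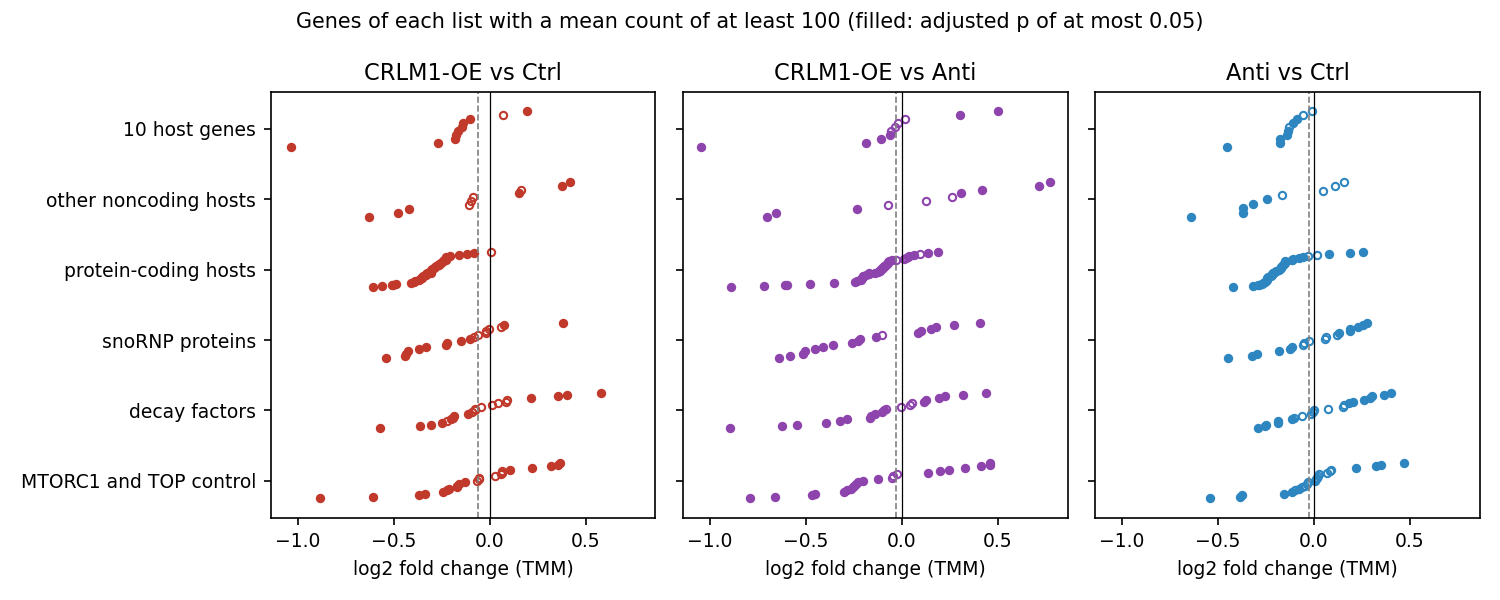
Log2 fold change (TMM factors) of the 10 hosts and of 5 other gene lists in the 3 comparisons, limited to mean counts of 100 or more; filled points passed the test, open points did not, and the dashed line is the median of well-counted genes. The protein-coding hosts with TOP starts lay almost wholly below 0 against Ctrl (median -0.31), whereas the decay factors and the MTORC1 list spread to both sides.

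The genes that bind snoRNAs, degrade host RNAs or control TOP translation moved in both directions, as did well-counted genes as a whole. Of those, 29.4% passed upward and 44.2% downward against Ctrl, 35.9% and 42.2% against Anti, and 25.8% and 35.8% in Anti against Ctrl. With total counts, 3752 of 8023 passed upward and 2077 downward against Ctrl, and 3461 and 2948 of 8156 against Anti. Anti against Ctrl, it was 3501 and 1600 of 8008. The counts of each list are to be read beside these. Of 18 snoRNP proteins and assembly factors, 10 passed downward and 2 upward in CRLM1-OE against Ctrl (median -0.13; with total counts 7 and 5, median 0.015), and 11 and 6 against Anti (median -0.22; with total counts also 11 and 6). Those that fell included FBL, the methyltransferase of box C/D particles (-0.44 against Ctrl and -0.14 against Anti, which itself stood below Ctrl by -0.32), GAR1, a core protein of box H/ACA particles (-0.44 and -0.41), NAF1, an H/ACA assembly factor (-0.54 against Ctrl and -0.51 against Anti), and NOP56 and NOP58, box C/D core proteins (-0.58 and -0.51 against Anti, -0.33 and -0.23 against Ctrl). Among those that passed upward, TCOF1 rose by 0.38 against Ctrl and 0.082 against Anti, and NOP10 rose by 0.41 against Anti. NOP10 differed from Ctrl by -0.017 (adjusted p = 0.715) in CRLM1-OE and by -0.45 in Anti. Of 21 nonsense-mediated decay factors, 4 passed upward and 8 downward against Ctrl and 6 and 11 against Anti. With total counts the balance turned, to 7 upward and 3 downward against Ctrl and 8 and 7 against Anti. UPF1, the central helicase of the pathway, rose from 14.0, 13.7 and 14.0 FPKM in Ctrl to 19.6, 20.3 and 19.6 FPKM in CRLM1-OE (0.40 ± 0.031), with 17.5, 17.5 and 18.2 FPKM in Anti, so that the difference from Anti was 0.12 ± 0.028. SMG6, the endonuclease of the pathway, rose by 0.58 against Ctrl and by 0.19 against Anti, and was higher in Anti than in Ctrl by 0.37 (adjusted p = 5.99e-07), while the cap-binding NCBP1 (-0.57 and -0.89) and the exonuclease XRN1 (-0.37 and -0.54) fell against Ctrl and Anti. Of 24 genes around MTORC1 and TOP control, 6 passed upward and 11 downward against Ctrl and 8 and 13 against Anti. With total counts it was 9 upward and 6 downward against Ctrl (median 0.079 in place of -0.062) and 8 and 12 against Anti. SESN2, which restrains MTORC1 under stress, rose by 0.37 against Ctrl and 0.33 against Anti. MLST8, an MTORC1 subunit, fell by 0.37 and 0.24. Anti against Ctrl, 6 and 6 of the snoRNP genes, 7 and 6 of the decay factors and 4 and 6 of the MTORC1 list passed upward and downward, with medians of 0.015, -0.00068 and -0.011. With total counts the same lists had 9 and 3, 10 and 3, and 13 and 3, with medians of 0.12, 0.10 and 0.094, so that these balances changed with the scaling.

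Genes on the opposite strand next to the hosts moved on their own. SLC3A2, a subunit of amino acid transporters whose start lies 51 bases from that of SNHG1, stood at 157 ± 0.685 FPKM in the CRLM1-OE samples, 235 ± 2.66 in Ctrl and 297 ± 3.17 in Anti, and fell in CRLM1-OE by 0.69 against Ctrl and 0.96 against Anti, while SNHG1 differed by -0.10 and -0.036. ZNFX1, whose start lies 248 bases from that of ZFAS1 by GENCODE v44, was higher in Anti than in Ctrl (0.38 ± 0.030), where ZFAS1 was lower (-0.18). Among the overlapping genes on the other strand, PRSS12 (at SNHG8), TRNAU1AP (at SNHG12), ST6GALNAC2 (at SNHG16) and ZBTB37 (at GAS5) had group means of 0.360 to 9.24 FPKM. TRNAU1AP differed from Ctrl by 0.056 ± 0.063 (adjusted p = 0.556) in CRLM1-OE, where SNHG12 rose. Without knowledge of strand use, reads from such a pair cannot be told apart.

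The snoRNAs themselves are short, lack a poly(A) tail and are poorly captured in these libraries, but 17 entries of the count table lay inside 7 of the 10 hosts on the same strand, none of them touching an exon of the canonical transcript. Their summed counts were 204, 140 and 178 in CRLM1-OE, 78, 56 and 60 in Ctrl, and 75, 79 and 66 in Anti. All 3 CRLM1-OE samples thus lay above the 6 control samples. Scaled with TMM factors, the sum was 4.38 ± 0.343 CPM in CRLM1-OE (SD, n = 3), 1.76 ± 0.111 for Ctrl and 1.94 ± 0.138 for Anti, whereas the 7 hosts together stood at 1382 ± 17.5, 1522 ± 27.9 and 1373 ± 15.3 CPM. The summed entries were thus highest in CRLM1-OE. The summed hosts were highest in Ctrl with TMM factors, an order that depended on those factors.

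In CRLM1-OE against Ctrl, 8 of the 17 entries passed upward and 0 downward, 7 of them past 2-fold, where 4.30% of genes with a mean count under 50 passed upward and 2.99% did so past 2-fold. With total counts 8 passed as well, and with DESeq2 4. Against Anti 5 passed upward, all past 2-fold (4.82% and 3.60% of such genes; with total counts 7, with DESeq2 3), and between Anti and Ctrl 0 of 17 passed in the edgeR test (1.75% of such genes upward), 0 at an unadjusted p under 0.05 and 0 with DESeq2. SNORA61, a box H/ACA snoRNA in SNHG12, had 56, 40 and 57 counts in CRLM1-OE, 29, 23 and 26 in Ctrl, and 21, 27 and 23 in Anti, a log2 fold change of 0.86 ± 0.24 (adjusted p = 0.0017) and 1.04 ± 0.25 (adjusted p = 1.2e-04). The copies of SNORD22 in SNHG1 had 31, 18 and 22 counts and 27, 12 and 19 counts in CRLM1-OE, against 3 to 6 counts in each Ctrl sample and 4 to 9 in each Anti sample. Summed by host, the entries in SNHG1 (189 counts over the CRLM1-OE samples, 47 in Ctrl and 58 in Anti), SNHG12 (204, 99 and 89), SNHG6 (51, 17 and 25), SNHG8 (40, 14 and 23) and SNHG5 (22, 5 and 9) were all highest in CRLM1-OE, and those in SNHG16 (5, 4 and 7) and ZFAS1 (11, 8 and 9) were too few to compare. Reads of snoRNAs, of unspliced host RNA and of other intron fragments cannot be told apart in these counts.

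**Figure D5:**
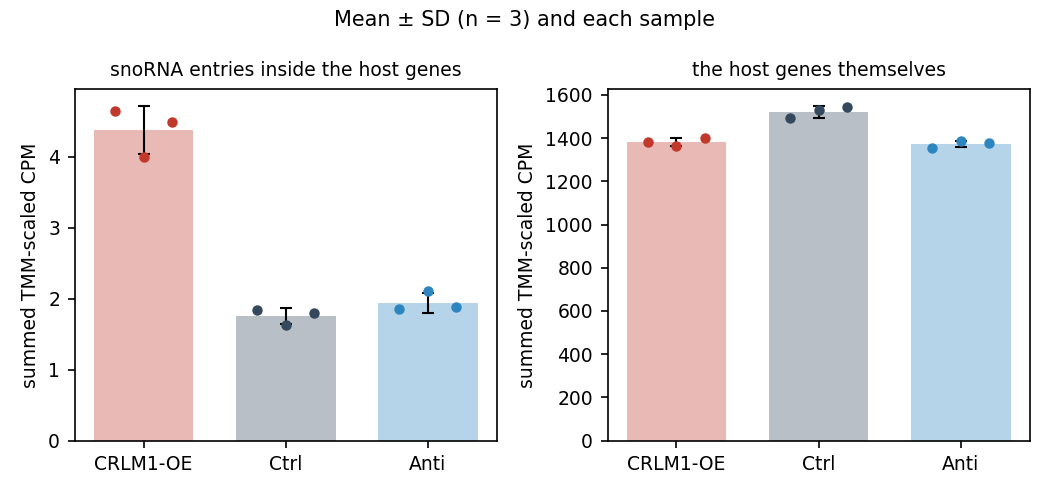
Summed TMM-scaled CPM of the 17 snoRNA entries inside 7 of the hosts (left) and of those 7 host genes (right); bars are group means, error bars SD (n = 3) and points samples. The snoRNA entries stood at 4.38 CPM in CRLM1-OE and at 1.76 and 1.94 CPM in Ctrl and Anti, while the hosts stood at 1382, 1522 and 1373 CPM. The order of the hosts depended on the TMM factors.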

How the data were processed

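Poly(A) RNA of 9 HCT116 samples was sequenced by the authors as 151-nt read pairs. By the study's methods, reads were trimmed with FASTX-Toolkit, reads under 16 nt were dropped, and the rest were aligned with TopHat2 to GRCh38 with at most 4 mismatches; uniquely mapped reads were counted over GENCODE v23 genes. Pair counting and strand use are not given in the sources used here. The authors deposited a table of counts (31558 genes) and a table of FPKM values (31268 genes); the deposited FPKM values behave as scaled to total counts.

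Counts were tested with edgeR 4.0.16 (R 4.3.3): TMM factors, quasi-likelihood F test on the 6 samples of a comparison, every gene with at least 1 count, Benjamini-Hochberg adjustment over all genes tested. "Passed" means an adjusted p of at most 0.05, and the 2-fold mark adds a fold change of at least 2; SE is the log2 fold change over the root of F. The fits were tested on simulated data. Levels of different genes were compared in FPKM only. DESeq2 1.42.0 and limma 3.58.1 (log2 of FPKM plus 0.1 or 1) served as alternatives, beside RLE factors, total counts, filterByExpr, all 9 samples in 1 fit, a replicate block and leaving out each sample.

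Members and gene lists were chosen with earlier results of these data known. From each other list were named up to 4 genes with the largest change per comparison among those past the test with a mean count of at least 100, and for the snoRNAs, other noncoding hosts and decay factors the 3 with the highest counts. Of 21 snoRNA entries under the listed names, 17 lay inside a member by GENCODE v44 and were used. Starts came from the RefSeq promoter table; SNHG6 and SNHG15 were not analysed there. A count of 3 corresponds to 0.0674 to 0.0901 CPM. Replicates differed beyond counting noise (chi-square per degree of freedom 2.06 to 3.95), so none was treated as a duplicate.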

Additional observations from a re-analysis of the deposited data

How the results depend on the processing

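The falls of SNHG7 and GAS5 in CRLM1-OE against both controls, the rise of SNHG12 against Anti, the differences of SNHG5 in Anti and that of ZFAS1 between Anti and Ctrl kept direction and passed under all 14 alternatives. Hosts passing upward in CRLM1-OE against Ctrl numbered 2 in place of 1 with RLE factors, filterByExpr, total counts and limma on log2(FPKM + 0.1) or log2(FPKM + 1), and 1 to 2 when a sample was left out (2 without Ctrl replicate 3). With total counts and with both limma fits, hosts passing downward numbered 2 in place of 8 against Ctrl and 2 in place of 4 against Anti, those past the 2-fold mark 0 in place of 1 in both, and Anti against Ctrl had 1 upward in place of 0, and 3 (total counts) or 2 (limma) downward in place of 7. With total counts 3 hosts in place of 2 passed upward in CRLM1-OE against Anti, SNHG6 being added (0.077, adjusted p = 3.3e-04). Leaving out 1 sample gave 2 to 5 hosts downward in CRLM1-OE against Anti (2 without Anti replicate 2 or CRLM1-OE replicate 3). SNHG1 turned to 0.040 (total counts) and 0.013 (both limma fits) in CRLM1-OE against Ctrl, and to 0.018, 0.00393 and 0.00386 in Anti against Ctrl; SNHG6 turned to 0.0050 in CRLM1-OE against Ctrl (total counts), and SNHG7 to 0.097 (total counts), 0.083 and 0.080 (limma, pseudocount 0.1 and 1) in Anti against Ctrl, where it passed in all 3 of these fits (adjusted p = 0.0021, 0.021 and 0.019). These fits share scaling to total counts. A pyrimidine tract was found in 6 genes in place of 3 when it could begin within 10 bases of the start. Same-numbered replicates did not deviate together (r from -0.0749 to 0.0782), so the numbers do not pair samples; the replicate block left the counts of passing hosts at 1 up and 8 down, 2 and 4, and 0 and 7. Counts of a few reads limit the single snoRNA entries.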
